A study of Mus musculus with 8 samples.

Results

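The 10 genes described here encode the core of canonical TGF-β signaling, namely the ligands Tgfb1, Tgfb2 and Tgfb3, the receptors Tgfbr1, Tgfbr2 and Tgfbr3, and the mediators Smad2, Smad3, Smad4 and Smad7. They were chosen by symbol, through GENCODE M21, from 46517 genes in a table of read counts, and all 10 were found and passed the filter on low counts, which kept 13278 genes. Whole liver RNA came from 4 male MøFoxO1-KO mice, in which FoxO1 loxP/loxP alleles are deleted by Cre under the Lyz2 promoter, and from 4 male WT littermates that carry FoxO1 loxP/loxP without Cre. All 8 mice were C57BL/6 and began a NASH diet at 6 weeks of age, which lasted 25 weeks, so that they were 31 weeks old when livers were taken after a 16 h fast. The Lyz2 promoter is active in macrophages, monocytes and neutrophils throughout the body, so the deletion is not limited to the liver, and whole liver RNA comes mostly from hepatocytes.

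TGF-β ligands are secreted in a latent form and, once released, bring together the type II receptor TGFBR2 and the type I receptor TGFBR1, which phosphorylates SMAD2 and SMAD3. These join SMAD4, enter the nucleus and regulate target genes, while SMAD7 is induced by the pathway and inhibits its receptors. In fibrotic liver the pathway is known for turning stellate cells into collagen-producing myofibroblasts, and macrophages, sinusoidal endothelial cells and platelets are among the sources of TGF-β1.

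Total counts ranged from 15253218 to 18025481 per mouse, and this depth leaves genes with few counts imprecise. Normalized counts of the targeted gene, Foxo1, were 394, 458, 302 and 458 in WT replicates 22 to 25 and 429, 302, 415 and 289 in MøFoxO1-KO replicates 26 to 29. The groups overlapped (log2 fold change -0.17, SE 0.18; Benjamini-Hochberg adjusted P = 0.686 by edgeR), so whole liver RNA does not check the deletion in myeloid cells. All 8 hepatocyte markers passed the filter, and 7 of them had a log2 fold change above 0. At an unadjusted P under 0.05, 2 were higher in MøFoxO1-KO livers, both without overlap, and 1 of these passed an adjusted P of 0.05 by edgeR with Benjamini-Hochberg adjustment. Of all genes tested, 8.65% were higher at that unadjusted P, 5% lay above WT without overlap and 0.294% passed the adjusted P. The part of hepatocytes in the values of the 10 genes was not tested. WT replicate 23 stood apart from the other livers, with a summed normalized count of 2334 for 12 sinusoidal endothelial markers against 4611 to 7633 in the other 7 mice, and 11 of the 12 markers had their lowest value of all 8 mice in it. Its sums of macrophage, stellate, B cell and platelet markers were also the lowest of the 8 mice. In bulk liver, fewer cells of a type and less RNA per cell cannot be told apart.

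None of the 10 genes was called different between genotypes. Differences are log2 fold changes of MøFoxO1-KO over WT from edgeR's quasi-likelihood test, and a call needed a log2 fold change beyond 1.5 in size together with a Benjamini-Hochberg adjusted P under 0.05, which 25 of the 13278 genes tested, or 0.188%, met. With the adjusted P alone, 0 of the 10 passed against 39 genes, or 0.294%, and DESeq2 and limma-voom also called 0 of the 10. At an unadjusted P under 0.05 there were 2 of the 10, Tgfb2 and Tgfbr1, both lower in MøFoxO1-KO livers, where 16.7% of all genes tested passed in either direction and 8.06% passed as lower. In 8 of the 10 the log2 fold change was below 0, against 51.7% of all genes tested, and the median was -0.18 against -0.01. Only Tgfb2 had groups that did not overlap, 1 of the 10 genes, against 9.71% of all genes tested in either direction and 4.71% with MøFoxO1-KO livers below. The 95% interval of the log2 fold change lay between -1 and 1 for 7 of the 10 genes, the exceptions being the 3 ligands. The SD was larger in WT than in MøFoxO1-KO livers for 8 of the 10, against 56.4% of all genes tested. WT replicate 23 had the lowest value of the 8 mice in 2 of the 10 genes, Tgfb1 and Tgfbr3, and the highest in 3, Tgfbr2, Smad2 and Smad4. The part of this liver in the larger SDs was not tested.

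**Figure D1:**
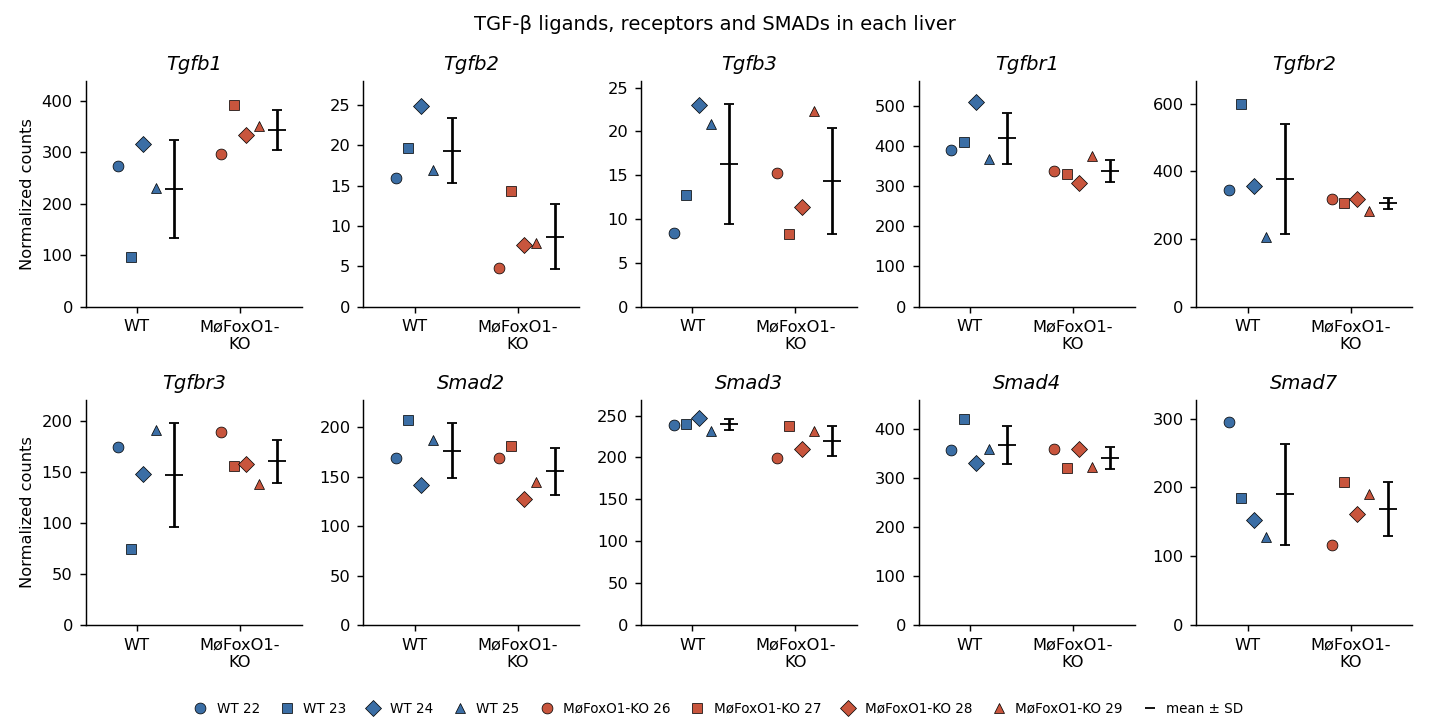
Normalized counts of the 10 genes (y axes, from 0) in each of 4 WT and 4 MøFoxO1-KO livers (x axes), with a marker shape for each mouse and bars for mean ± SD. Tgfb2 is the one gene whose 4 MøFoxO1-KO livers, at 4.78 to 14.3, all lay below the 4 WT livers, at 15.9 to 24.9.

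**Figure D2:**
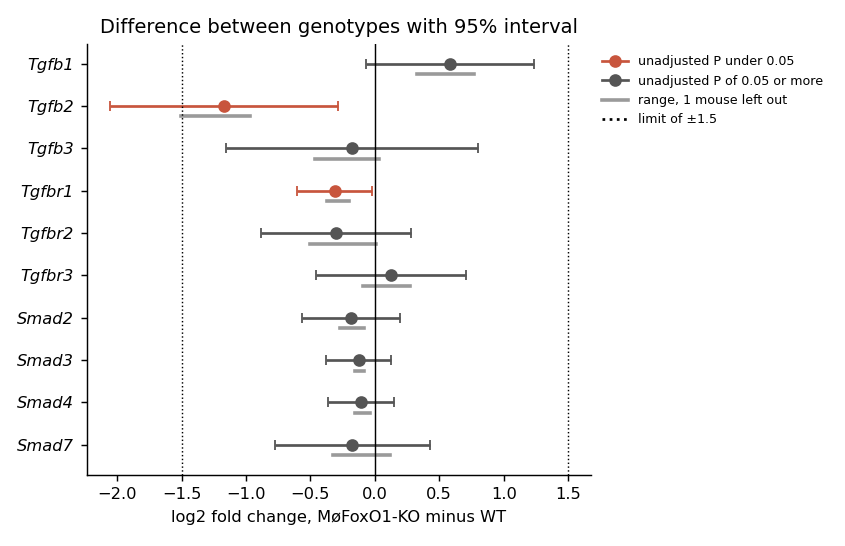
Log2 fold change of MøFoxO1-KO over WT (x axis) for each gene, with its 95% interval from edgeR (thin line) and its range when 1 mouse was left out (grey bar); dotted lines mark the limit of 1.5. Tgfb2 and Tgfbr1 are the 2 genes whose intervals lie below 0, and 7 of the 10 intervals stay between -1 and 1.

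The ligands Tgfb1 and Tgfb2 had log2 fold changes of opposite sign, and their upstream sequences are shown because these log2 fold changes were the farthest from 0 among the 10 genes, although the 95% interval of Tgfb1 included 0. The 250 bases before each RefSeq start site, on GRCm38.p6, are written 5′ to 3′ on the strand of the gene, chr7:25686752-25687001 on the plus strand for Tgfb1 and chr1:186705990-186706239 on the minus strand for Tgfb2. Capitals mark GC boxes, searched as GGGCGG or CCGCCC, and SMAD boxes, searched as CAGAC or GTCTG.
Tgfb1: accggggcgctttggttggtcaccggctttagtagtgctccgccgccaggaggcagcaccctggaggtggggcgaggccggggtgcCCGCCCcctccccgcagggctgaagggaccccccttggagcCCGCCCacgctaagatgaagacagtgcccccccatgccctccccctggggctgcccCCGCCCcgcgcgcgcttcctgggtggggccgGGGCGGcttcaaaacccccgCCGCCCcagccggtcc
Tgfb2: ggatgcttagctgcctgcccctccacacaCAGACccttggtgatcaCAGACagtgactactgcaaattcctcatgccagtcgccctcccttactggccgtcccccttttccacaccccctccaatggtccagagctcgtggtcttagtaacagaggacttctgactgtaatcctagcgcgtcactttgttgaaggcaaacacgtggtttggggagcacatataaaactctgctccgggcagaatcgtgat
The Tgfb1 window held 5 GC boxes and 0 SMAD boxes at a GC content of 75.2%, and the Tgfb2 window held 2 SMAD boxes and 0 GC boxes at 53.6%. A GC box was in 32.7% and a SMAD box in 42.2% of the 32851 RefSeq windows of the same length. The forkhead motif bound by FoxO factors, searched as GTAAACA or TGTTTAC, was in neither window and in 3.17% of all windows, and the AP-1 motif TGANTCA, which reads the same on both strands, was in neither window and in 6.75% of all windows. Smad2, Smad4 and Smad7 were not looked up, and of the other 7 members 5 matched a RefSeq start site, with 6 windows in all, and neither of these motifs was in any of the 6. A SMAD box also stood in the windows of Tgfbr2 and of the second start site of Tgfbr1, and GC boxes in those of Smad3 and of the first start site of Tgfbr1. A match is a description of letters, and no match says only that these letters are not in the window.

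Tgfb1 encodes TGF-β1, the main profibrotic ligand of the liver, and spans 25687002 to 25705077 on chromosome 7 of GRCm38 (ENSMUSG00000002603). Tgfb1 had 274, 96.2, 315 and 230.5 normalized counts in WT replicates 22, 23, 24 and 25 and 297, 391, 332 and 351 in MøFoxO1-KO replicates 26, 27, 28 and 29. WT replicate 23 was far below the other 7 mice, and the groups overlapped only because MøFoxO1-KO replicate 26 lay below WT replicate 24. WT livers averaged 229 ± 95.0 and MøFoxO1-KO livers 343 ± 39.3 (SD, n = 4 each; exact two-sided permutation test, P = 0.0571; 4 mice against 4 allow no P under 0.0286). MøFoxO1-KO over WT gave a log2 fold change of 0.58 (SE 0.29, 95% interval -0.07 to 1.23; by edgeR unadjusted P = 0.0756, Benjamini-Hochberg adjusted P = 0.356). Omitting WT replicate 23 lowered it to 0.33, and over all omissions of 1 mouse it reached up to 0.77.

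Markers of cell types that make TGF-β1 are given beside Tgfb1, since WT replicate 23 was also lowest in several of these sums. It had the lowest sinusoidal endothelial, macrophage, stellate and platelet sums of all mice. The 6 platelet markers summed to 46.1 in WT replicate 23, 123 to 162 in the other WT livers and 108 to 198 in MøFoxO1-KO livers. The summed sinusoidal endothelial markers were 2334 in WT replicate 23, 5168 to 6599 in the other WT livers and 4611 to 7633 in MøFoxO1-KO livers, and all 12 of these markers had a log2 fold change above 0, with a median of 0.25 and 0 of 12 at an unadjusted P under 0.05. The 17 macrophage markers summed to 4424 to 8134 in WT livers and to 5205 to 22608 in MøFoxO1-KO livers. Replicates 26 and 28, at 7615 and 5205, lay within the WT range, and replicates 27 and 29, at 14504 and 22608, above it. Of the 17 log2 fold changes 12 were above 0, with a median of 0.69. At an unadjusted P under 0.05, 7 of the 17 were higher and 2 lower, against 16.7% of all genes tested. The 2 lower ones, named after their values were seen, were Gpnmb (log2 fold change -4.13, Benjamini-Hochberg adjusted P = 0.0382 by edgeR), the 1 marker called, and Trem2 (log2 fold change -3.88, adjusted P = 0.0983), both known from lipid-laden macrophages. No marker of these lists was at 0 in every mouse, and the part of these cells in the Tgfb1 values was not tested. Per 100 sinusoidal endothelial marker counts, Tgfb1 ranged from 3.75 to 6.10 in WT livers and from 4.35 to 7.61 in MøFoxO1-KO livers. The overlap of these ranges held also per 100 stellate marker counts, at 1.78 to 4.18 and 3.02 to 5.22, and per 100 macrophage marker counts, at 2.17 to 3.96 and 1.55 to 6.39. The 3 genes whose log2 normalized counts were most like those of Tgfb1 over the 8 mice were Haus5 (Pearson r = 0.985), which encodes a subunit of the augmin complex, Gng11 (r = 0.983), which encodes a G protein γ subunit, and Egfl7 (r = 0.978), which encodes a factor secreted by endothelial cells. Like Tgfb1, all 3 were lowest in WT replicate 23. There Haus5 had 7.85 normalized counts against 20.6 to 36.9 in the other mice, and Gng11 43.2 against 90.4 to 151. Egfl7 had 143 there against 436 to 616. The correlations lean on this liver, and r without it was not computed.

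**Figure D3:**
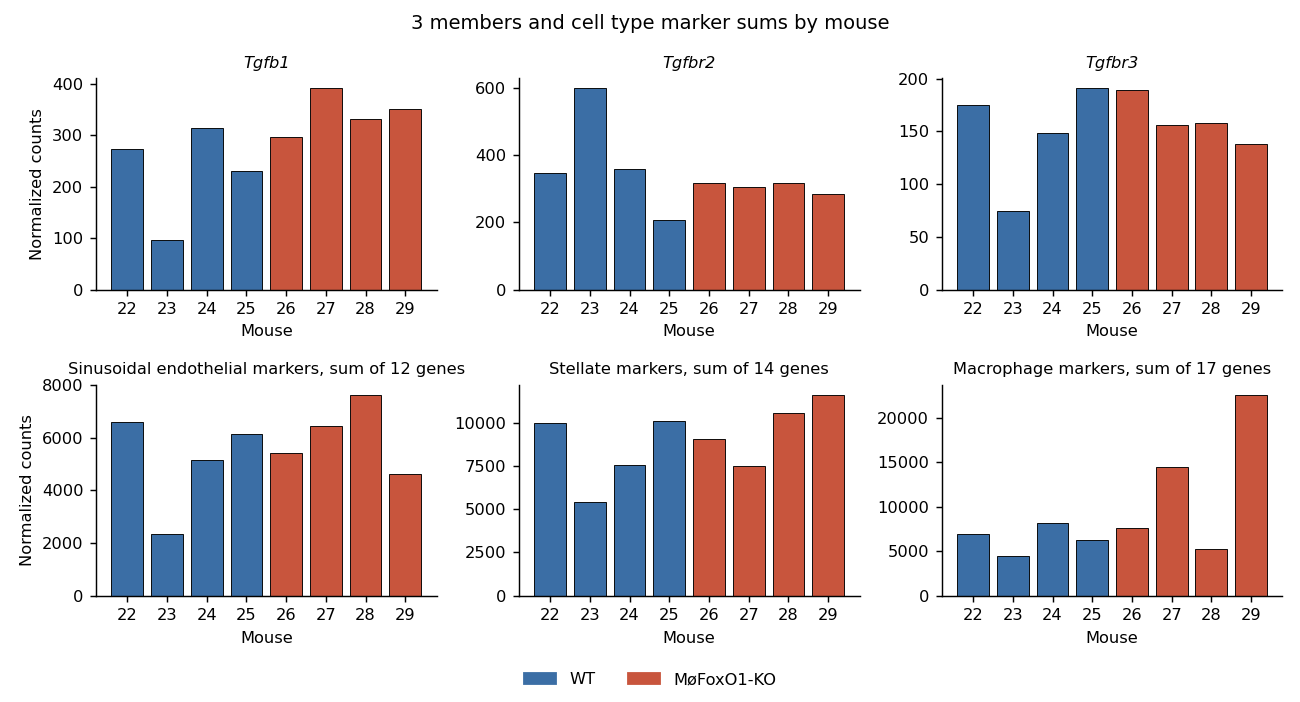
Normalized counts (y axes, from 0) of Tgfb1, Tgfbr2 and Tgfbr3, chosen after their values were seen, and summed counts of 3 marker lists in each mouse (x axes, WT 22 to 25 and MøFoxO1-KO 26 to 29). WT replicate 23 has the lowest Tgfb1 (96.2), Tgfbr3 (74.6) and sinusoidal endothelial sum (2334) and the highest Tgfbr2 (598) of the 8 mice.

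Tgfb2 encodes TGF-β2, a ligand that needs the co-receptor TGFBR3 for strong binding to TGFBR2, and lies on chromosome 1 from 186622792 to 186705989 (ENSMUSG00000039239). Tgfb2 had 15.9, 19.6, 24.9 and 16.9 normalized counts in WT replicates 22 to 25 and 4.78, 14.3, 7.58 and 7.82 in MøFoxO1-KO replicates 26 to 29. All 4 MøFoxO1-KO livers lay below all 4 WT livers, by a narrow margin for MøFoxO1-KO replicate 27. Means were 19.3 ± 4.02 (SD, n = 4) and 8.62 ± 4.03 (SD, n = 4), which gives the smallest P an exact two-sided permutation test allows here, 0.0286. The log2 fold change of -1.17 (SE 0.40, 95% interval -2.06 to -0.29) had an unadjusted P of 0.0144 and did not pass adjustment (Benjamini-Hochberg adjusted P = 0.201 by edgeR). Across the omissions of single mice it ranged from -1.503 to -0.97, with an unadjusted edgeR P under 0.05 in 8 of 8. These values rest on 17 to 27 raw counts in WT livers and 5 to 12 in MøFoxO1-KO livers, so they carry a large counting error. Only the WT livers all reached 10 raw counts, so Tgfb2 passed the filter on low counts through the group where it was higher. Its separation of the groups is therefore not independent of the filter.

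Tgfb3 encodes TGF-β3, the third ligand, and lies on chromosome 12 from 86056744 to 86079041 (ENSMUSG00000021253). Tgfb3 had 8.41, 12.8, 23.02 and 20.9 normalized counts in WT replicates 22 to 25 and 15.3, 8.34, 11.4 and 22.3 in MøFoxO1-KO replicates 26 to 29. The groups overlapped over nearly their whole ranges. Its log2 fold change was -0.18 (SE 0.44, 95% interval -1.16 to 0.80; Benjamini-Hochberg adjusted P = 0.871 by edgeR), and it changed sign, to 0.04, without WT replicate 24 and, to 0.01, without MøFoxO1-KO replicate 27.

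Among the ligands, levels per exon length were summed in each mouse and each ligand was given as a percentage of that sum. Tgfb1 made up 90.5 ± 4.74% (SD, n = 4) of the ligand transcripts of WT livers and 95.9 ± 1.06% (SD, n = 4) of those of MøFoxO1-KO livers. The ranges, 84.0 to 95.3% and 94.5 to 96.9%, overlapped. WT replicate 23 had the 84.0%, and without it the WT mean was 92.6%. The share of Tgfb2 was 2.44 to 7.57% in WT and 0.681 to 1.57% in MøFoxO1-KO livers, without overlap. Tgfb3 held 2.21 to 8.42% and 1.56 to 4.55%. Both were highest in WT replicate 23, and the other WT livers had 2.44 to 3.20% for Tgfb2. No background over other genes was computed for these shares. The shares do not depend on the scaling between mice.

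Tgfbr1 encodes the type I receptor kinase that phosphorylates SMAD2 and SMAD3, and lies on chromosome 4 from 47353222 to 47414931 (ENSMUSG00000007613). Tgfbr1 had 391, 410.1, 511 and 368 normalized counts in WT replicates 22 to 25 and 339.6, 331, 309 and 375 in MøFoxO1-KO replicates 26 to 29. MøFoxO1-KO livers were the lower ones apart from replicate 29, which exceeded WT replicate 25. Means were 419.9 ± 63.3 (SD, n = 4) and 339 ± 27.7 (SD, n = 4) (exact two-sided permutation test, P = 0.0571). A log2 fold change of -0.31 (SE 0.13, 95% interval -0.60 to -0.02) had an unadjusted P of 0.0387 and did not pass adjustment (Benjamini-Hochberg adjusted P = 0.271 by edgeR). Without WT replicate 24, the highest of the 8, it was -0.20, and the unadjusted edgeR P stayed under 0.05 in 4 of 8 omissions of a mouse.

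Tgfbr2 encodes the type II receptor that binds the ligand first, and lies on chromosome 9 from 116087698 to 116175363 (ENSMUSG00000032440). Tgfbr2 had 346, 598, 357 and 206 normalized counts in WT replicates 22 to 25 and 317, 305, 317 and 283 in MøFoxO1-KO replicates 26 to 29. Both the highest and the lowest of the 8 values were WT, and the coefficient of variation was 43.2% in WT and 5.30% in MøFoxO1-KO livers, a difference in spread that was not tested. The fitted difference on the log2 scale was -0.30 (SE 0.26, 95% interval -0.88 to 0.28; Benjamini-Hochberg adjusted P = 0.602 by edgeR). Omitting WT replicate 23, the high one, gave 0.01, and omitting WT replicate 25, the low one, gave -0.51.

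Tgfbr3 encodes betaglycan, the co-receptor that presents ligand to TGFBR2, and lies on chromosome 5 from 107106570 to 107289629 (ENSMUSG00000029287). Tgfbr3 had 175, 74.6, 148 and 191 normalized counts in WT replicates 22 to 25 and 189, 156, 158 and 139 in MøFoxO1-KO replicates 26 to 29. WT replicate 23 was again the lowest, and the MøFoxO1-KO livers lay within the WT range. Between genotypes its log2 fold change was 0.13 (SE 0.26, 95% interval -0.45 to 0.71; Benjamini-Hochberg adjusted P = 0.845 by edgeR), and it turned to -0.09 without WT replicate 23.

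The ratio of Tgfb1 to Tgfbr1, both per exon length, was chosen after the values were seen and is given without a test. It was 1.79, 0.599, 1.57 and 1.602 in WT replicates 22 to 25 and 2.23, 3.01, 2.75 and 2.39 in MøFoxO1-KO replicates 26 to 29. The groups did not overlap, which was also so for 17.9% of the ratios of Tgfb1 to another tested gene and for 16.4% of the ratios of another tested gene to Tgfbr1. For the receptor pair, the ratio of Tgfbr2 to Tgfbr1 was 0.764 to 1.99 in WT and 1.03 to 1.40 in MøFoxO1-KO livers.

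Smad2 and Smad3 encode the receptor-activated SMADs of this pathway. Smad2 (ENSMUSG00000024563, chromosome 18 from 76241580 to 76305731) had 169, 207, 142 and 187 normalized counts in WT replicates 22 to 25 and 168, 181, 128 and 144 in MøFoxO1-KO replicates 26 to 29. Smad3 (ENSMUSG00000032402, chromosome 9 from 63646767 to 63757994) had 239, 240.4, 247 and 231 in the WT livers and 199.9, 237, 210.2 and 231 in the MøFoxO1-KO livers. The groups overlapped in both genes, and the WT livers were closest together for Smad3, with a coefficient of variation of 2.63%. The log2 fold changes were -0.18 for Smad2, with a 95% interval from -0.56 to 0.20 (Benjamini-Hochberg adjusted P = 0.635 by edgeR), and -0.13 for Smad3, with an interval from -0.38 to 0.13 (adjusted P = 0.621). Smad2 made up 53.2 ± 4.44% (SD, n = 4) of the summed level of the pair per exon length in WT livers, and with 52.3 ± 3.94% (SD, n = 4) the share in MøFoxO1-KO livers overlapped it.

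Smad4 encodes the common partner of the receptor-activated SMADs (ENSMUSG00000024515, chromosome 18 from 73639009 to 73703780). Smad4 had 356, 420.0, 331 and 359 normalized counts in WT replicates 22 to 25 and 359, 321, 359 and 322 in MøFoxO1-KO replicates 26 to 29. The values overlapped, and the log2 fold change of -0.11 (SE 0.11) had one of the narrowest 95% intervals of the 10 genes, from -0.36 to 0.15 (Benjamini-Hochberg adjusted P = 0.682 by edgeR).

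Smad7 encodes the inhibitory SMAD, itself a target of the pathway (ENSMUSG00000025880, chromosome 18 from 75367529 to 75395935). Smad7 had 294, 184, 153 and 128 normalized counts in WT replicates 22 to 25 and 117, 207, 161 and 189.9 in MøFoxO1-KO replicates 26 to 29. WT replicate 22 was the highest of the 8, and the other 3 WT livers lay within the MøFoxO1-KO range. In edgeR the log2 fold change was -0.17 (SE 0.27, 95% interval -0.78 to 0.43; Benjamini-Hochberg adjusted P = 0.789 by edgeR), and it was 0.12 without WT replicate 22.

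Levels were compared between genes as counts per kb of exon in a TMM-scaled library of 1000000 counts (RPKM). In WT livers Smad4 had the highest mean level, 6.03 ± 0.624 (SD, n = 4), followed by Tgfb1 at 5.46 ± 2.27, Tgfbr2 at 4.81 ± 2.08, Tgfbr1 at 3.92 ± 0.591, Smad2 at 3.03 ± 0.476, Smad3 at 2.64 ± 0.0694, Smad7 at 2.57 ± 0.991 and Tgfbr3 at 1.37 ± 0.480. Tgfb3 at 0.294 ± 0.124 and Tgfb2 at 0.204 ± 0.0424 came last, and the step from Tgfbr3 to Tgfb3 was the only one between neighbours whose ranges did not overlap. In MøFoxO1-KO livers Tgfb1 stood first at 8.18 ± 0.938 (SD, n = 4), above every Smad4 value, and the other genes kept their order down to Tgfb2 at 0.0909 ± 0.0425. There the ranges of neighbours were apart between Tgfb1 and Smad4, Smad4 and Tgfbr2, Tgfbr2 and Tgfbr1, and Tgfbr3 and Tgfb3. The first place of Smad4 in WT livers rested on WT replicate 23, at 2.30 for Tgfb1 and 6.91 for Smad4. Without that liver the WT mean of Tgfb1 was above that of Smad4, as in MøFoxO1-KO livers.

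**Figure D4:**
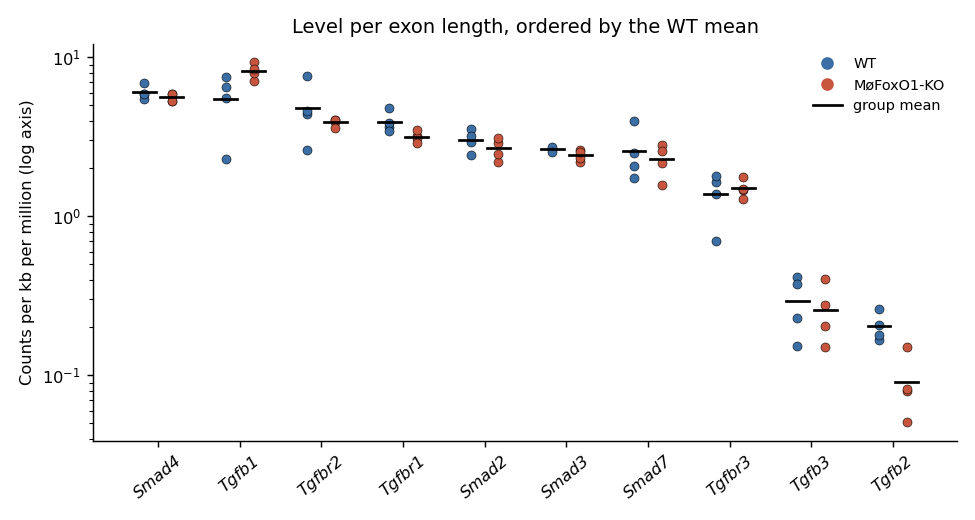
Level of each gene in RPKM (log y axis) in each liver, genes ordered along the x axis by the WT mean, with bars for group means. Tgfb2 and Tgfb3 lie far below the other 8 genes in both genotypes, and Tgfb1 has the highest mean in MøFoxO1-KO livers.

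Other genes of the pathway were read from lists arranged by role. Of 178 listed genes 138 passed the filter, and 0 of them had a Benjamini-Hochberg adjusted P under 0.05 by edgeR. At an unadjusted P under 0.05, MøFoxO1-KO livers had 5 higher and 18 lower genes, the background being 8.65% and 8.06% of all genes tested. The median log2 fold change was -0.06, with 54 above and 84 below 0. Groups did not overlap in 11 of the 138, against 9.71% of all genes tested, so the count over both directions is not above the background. Of these, 2 were above and 9 below in MøFoxO1-KO livers, against 5% and 4.71% of all genes tested. These counts were not tested, and the lists were chosen with earlier results of these data known, so neither count is read as a result about the pathway.

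Of 16 tested activin, inhibin, BMP and GDF ligands, 10 had a log2 fold change above 0. An unadjusted P under 0.05 was found for 2, against 16.7% of all genes tested. The larger difference was that of Nodal, a ligand known from embryonic patterning, with WT livers at 10.7 ± 5.31 and MøFoxO1-KO livers at 21.5 ± 5.53 (SD, n = 4 each) normalized counts (log2 fold change 1.01, Benjamini-Hochberg adjusted P = 0.274 by edgeR). Among 15 other receptors and co-receptors, 6 were above and 9 below 0, and the 3 at an unadjusted P under 0.05 were lower, among them the BMP co-receptor gene Rgma, at 19.9 ± 9.35 and 9.05 ± 3.72 (log2 fold change -1.12, adjusted P = 0.255). Nodal and Rgma rest on few counts, and each reached 10 raw counts in every liver only in the group where it was higher. Their passing of the filter is therefore not independent of these differences. Of the 4 other SMADs, Smad5, a mediator of BMP signaling, had 388 ± 24.3 and 323 ± 35.4 (log2 fold change -0.26, adjusted P = 0.291).

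The latency and activation list, on the storage and release of ligand, had 7 of 19 genes above 0. Itgb3, an integrin subunit that can take part in activating latent TGF-β, averaged 46.5 ± 13.0 normalized counts in WT and 72.3 ± 11.5 in MøFoxO1-KO livers (SD, n = 4 each), without overlap (log2 fold change 0.63, Benjamini-Hochberg adjusted P = 0.270 by edgeR), and Furin, the protease that processes the precursors, had 3751 ± 789 and 2805 ± 462 (log2 fold change -0.42, adjusted P = 0.273). Of 10 extracellular antagonists, Fst, which encodes the activin-binding follistatin, had 35.7 ± 21.95 and 107 ± 77.8 (log2 fold change 1.58, adjusted P = 0.215), and without MøFoxO1-KO replicate 29, which had 219 normalized counts, its log2 fold change was 0.96.

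Intracellular regulators had 7 genes above and 23 below 0 of 30 tested, with a median log2 fold change of -0.18. At an unadjusted P under 0.05, 1 was higher and 3 were lower, against 8.65% and 8.06% of all genes tested. Rbx1, a subunit of ubiquitin ligases, had 793 ± 137 and 1016 ± 95.6 normalized counts (SD, n = 4 each; log2 fold change 0.36, Benjamini-Hochberg adjusted P = 0.255 by edgeR), and Nedd4l, a ubiquitin ligase that acts on activated SMADs, had 769 ± 179 and 553 ± 61.5 (log2 fold change -0.48, adjusted P = 0.214). Groups overlapped for Nedd4l. Fkbp1a, named after its values were seen, had 1290 ± 112 and 955 ± 55.6 without overlap (log2 fold change -0.43, adjusted P = 0.121). Skil, an inhibitor of SMAD complexes and a target of the pathway, had 170 ± 20.8 and 189 ± 37.9 (log2 fold change 0.16, adjusted P = 0.694), and 0.035 without MøFoxO1-KO replicate 29.

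The transcription factors and coactivators that work with SMADs had the lowest median of the lists of other pathway genes, -0.22. Of 16 tested, 13 were below 0, against 51.7% of all genes tested. At an unadjusted P under 0.05, 7 were lower, against 8.06% of all genes tested. Without overlap, 4 lay below WT, against 4.71% of all genes tested. These counts were not tested. Atf3, a stress-induced factor, averaged 124 ± 108 normalized counts in WT and 33.1 ± 10.2 in MøFoxO1-KO livers, with SD over 4 mice each (log2 fold change -1.90, Benjamini-Hochberg adjusted P = 0.182 by edgeR). The groups overlapped, and without WT replicate 22, which had 270.1 normalized Atf3 counts, the log2 fold change was -1.18. Jun, a subunit of AP-1, which was chosen after its values were seen, had 539 ± 148 and 251 ± 63.9 without overlap (log2 fold change -1.10, adjusted P = 0.0953).

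Target genes of TGF-β had no common direction. Of 27 tested, 12 were above and 15 below 0, and the median was -0.07 (from -0.20 without MøFoxO1-KO replicate 28 to -0.0026 without WT replicate 22). At an unadjusted P under 0.05, 3 were lower, all of them fibrillar collagen genes, against 8.06% of all genes tested. Col1a1 averaged 371 ± 113 normalized counts in WT and 153 ± 89.7 in MøFoxO1-KO livers, with SD over 4 mice each and without overlap (log2 fold change -1.28, Benjamini-Hochberg adjusted P = 0.193 by edgeR), and Col3a1 had 804 ± 284 and 476 ± 196 (log2 fold change -0.76, adjusted P = 0.250). Without WT replicate 22, which had 1228 normalized Col3a1 counts, the log2 fold change of Col3a1 was -0.48. The third was Col1a2, chosen after its values were seen (log2 fold change -0.76, adjusted P = 0.264). Ccn2, which encodes connective tissue growth factor, had 87.1 ± 32.4 and 66.5 ± 10.7, and Pmepa1, a feedback inhibitor, had 120 ± 30.0 and 106 ± 22.4, with edgeR adjusted P values (Benjamini-Hochberg) of 0.535 and 0.749. Omitting 1 mouse moved the log2 fold change of Ccn2 between -0.59 and -0.17 and that of Pmepa1 between -0.28 and 0.0061. Acta2, the smooth muscle actin of myofibroblasts, had 20.4 ± 12.6 and 29.7 ± 15.3 (log2 fold change 0.53, adjusted P = 0.677), and without WT replicate 23 its log2 fold change was 0.21. Summed stellate markers, of which 7 of 14 were above 0, ranged from 5394 to 10072 in WT and from 7484 to 11619 in MøFoxO1-KO livers, and their part in the collagen values was not tested. Of the 7 tested BMP target genes 4 were above 0 and 0 had an unadjusted P under 0.05.

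**Figure D5:**
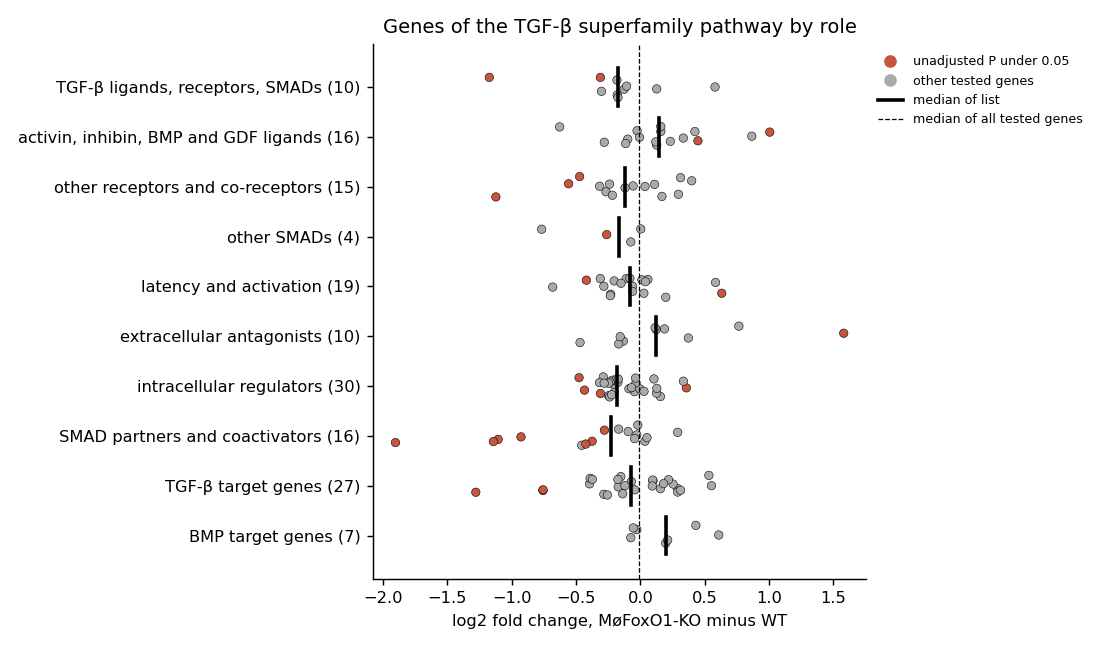
Log2 fold change of MøFoxO1-KO over WT (x axis) for each tested gene of the lists, by role (y axis, number tested in brackets), with red points at an unadjusted edgeR P under 0.05, a bar for the median of each list and a dashed line for the median of all genes tested. No gene shown had an adjusted P under 0.05, and the list of SMAD partners and coactivators has the lowest median, -0.22.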

How the data were processed

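Polyadenylated RNA of 8 livers was sequenced from libraries made with a kit that does not mark strand. The authors deposited unnormalized read counts per Ensembl gene with exon coordinates and summed exon lengths. STAR, featureCounts and mm10 are named in the submitters' processing notes, and versions and the treatment of multi-mapping reads are not given in the sources used here. The filter was filterByExpr of edgeR 4.0.16 (R 4.3.3). It kept genes with about 10 counts or more in at least 4 mice, so that 1 group alone could suffice. The kept genes were scaled by TMM, which gives the normalized counts, and tested by the quasi-likelihood F test of edgeR without covariates, with Benjamini-Hochberg adjustment over 13278 genes. Alternatives used DESeq2 1.42.0 and limma 3.58.1, other scalings and filters, and omission of single mice. Exact permutation tests used scipy 1.17.1. The tests were tried on simulated data first. The labels do not say whether mice were processed in batches. The members and lists were chosen with earlier results of these data known. Named genes are the members, Foxo1, for each list the largest increase and decrease at an unadjusted P under 0.05, a few set targets (1 is not reported here), and the 3 genes most correlated with Tgfb1. Exons of Tgfb2, Tgfb3 and Tgfbr3 overlap other genes in part, all of which had 0 counts.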

Additional observations from a re-analysis of the deposited data

How the results depend on the processing

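With 4 mice a group and a common biological coefficient of variation of 0.256, small differences in Tgfb2 and Tgfb3, the genes with the fewest counts, could not be resolved. None of the 10 genes was called under any alternative test, scaling, filter or omission of a mouse, and the lowest adjusted P over these was 0.172 (Tgfb2, DESeq2, Benjamini-Hochberg). With the unadjusted P alone, 2 were called. Tgfb2 and Tgfb3 could not be fitted at 10 counts in every mouse. The sign held in every alternative for Tgfb1, Tgfb2, Tgfbr1, Smad2, Smad3 and Smad4. When 1 mouse was omitted, the log2 fold change of Tgfb3 ran from -0.47 to 0.036 and was above 0 when WT replicate 24 (0.036) or MøFoxO1-KO replicate 27 (0.0085) was omitted. That of Tgfbr2 ran from -0.51 to 0.011 and that of Tgfbr3 from -0.092 to 0.28, both turning when WT replicate 23 was omitted, and that of Smad7 from -0.32 to 0.12, turning when WT replicate 22 was omitted. Omitting 1 mouse moved the median log2 fold change of the 10 genes between -0.21 and -0.11, and left 1 to 4 of them without overlap. The 4 were Tgfb2, Tgfbr1, Tgfbr2 and Smad3, without WT replicate 25, where 15.1% of all genes tested did not overlap. Over all genes, 25 calls became 174 with DESeq2, 13 with limma-voom, 120 without the filter, 39 at the adjusted P alone, 138 at an adjusted P under 0.1, 2219 at the unadjusted P, and 3 (without WT replicate 25) to 82 (without MøFoxO1-KO replicate 28) when 1 mouse was left out; the cause was not tested. Of the TGF-β targets, DESeq2 called 1, Timp1, which did not pass the edgeR filter. Without division by exon length, Tgfb1 made up 84.8% of ligand counts in WT and 93.7% in MøFoxO1-KO livers and 1 gene kept its place in the order of levels. Omitting 1 mouse left 6 to 10 genes in their place in the order of that genotype, 6 to 10 for WT and 8 to 10 for MøFoxO1-KO livers. No paired analysis was possible because the labels do not give the litter of each mouse.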
